A study of Homo sapiens with 8 samples.

Results

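MDA-MB-231 cells that received only the solvent DMSO were compared at 24 h and at 12 h, a comparison that shows how messenger RNA levels of a culture without active compound drifted over the course of the experiment. MDA-MB-231 is an established human line of triple-negative breast cancer, which lacks estrogen receptor, progesterone receptor and HER2 amplification. The members of the comparison were 4 of the 8 RNA-seq libraries of the series, 2 of vehicle cells at 12 h (A and B) and 2 of vehicle cells at 24 h (A and B), and the 14850 genes of the count table with enough reads to test, of 43627 genes listed in all. The other 4 libraries came from cells given 0.5 µM EMD37 for 12 h or 24 h. They entered the fit so that all groups shared 1 estimate of the spread, and their own change with time is set beside that of the vehicle cells at the end. All cells grew in DMEM with 2 mM L-glutamine, 10% fetal bovine serum and 1% penicillin-streptomycin. The labels give no genetic alteration for any group, do not say when the medium was last changed, and do not say whether A and B were separate cultures, so p-values measure only the spread between these libraries. A culture that was handled once keeps dividing while it uses glutamine, cystine, glucose and serum factors and collects lactate and the proteins it secretes. Cells read amino acid supply through the translation factor eIF2α and the transcription factor ATF4, oxidants through NRF2, growth factors through the MAPK cascade and its immediate early genes, and the progress of division through E2F and the mitotic kinases. Those pathways were among the 38 gene lists examined, which were written with earlier results of these data known.

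The identity of the line was visible in the libraries. VIM, CD44, AXL and CAV1, which mark mesenchymal breast lines, each had at least 1135 CPM (read counts scaled to library size, with TMM factors) in every vehicle library. ESR1, CDH1 and EPCAM, which mark luminal or epithelial cells, had at most 1.54 CPM. Other luminal markers read higher. MLPH had 10.7 to 14.9 CPM in the vehicle libraries, and PGR, TFF3, GATA3 and TFF1 reached 3.66, 2.85, 2.14 and 1.71 CPM. PLAU, SPARC and S100A4, which are also listed as markers of such lines, had few reads, with at most 0.711, 1.20 and 8.14 CPM, and 31.1% of the exon sequence of PLAU is overlapped by another annotated gene. Summed markers of leukocytes ranged from 3.70 to 5.28 CPM, of fibroblasts from 3.15 to 6.36 CPM and of endothelial cells from 1.52 to 4.36 CPM in the 4 libraries, and CD3E, LYZ and CD79A had 0 reads in all of them. Of the tested markers (2 of leukocytes, 3 of fibroblasts and 1 of endothelial cells) edgeR's quasi-likelihood test called none, with 0, 1 and 0 at an unadjusted p below 0.05 and 0, 0 and 0 called by DESeq2. Of the luminal list 1 of 7 was called, TFF1, described below (14.3%, against 3.25% of all genes tested called lower).

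The vehicle libraries held 8994977 to 11437813 counted reads, and A and B correlated at 0.991 at 12 h and 0.988 at 24 h (Pearson, log2 CPM across genes). One gradient ran along the comparison. In the vehicle 24 h B library, genes with GC-rich exons read high and genes with GC-poor exons read low against the mean of the 4 libraries, with a median deviation (log2) of -0.09 in the lowest of 10 equal bins of genes by exon GC content and 0.41 in the highest. The vehicle 12 h A library leaned the other way, from 0.09 to -0.25, and the remaining 2 stayed between -0.09 and 0.02. The median log2 change from 12 h to 24 h ran from -0.11 in the lowest bin to 0.36 in the highest, and from -0.05 to 0.08 when vehicle 24 h B was left out. Each log2 change and call of the full fit below was also computed with the GC trend of every library removed by offsets. Fits without 1 library, and DESeq2, used no offsets. The part of the GC trend in each result was not tested beyond this.

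**Figure D1:**
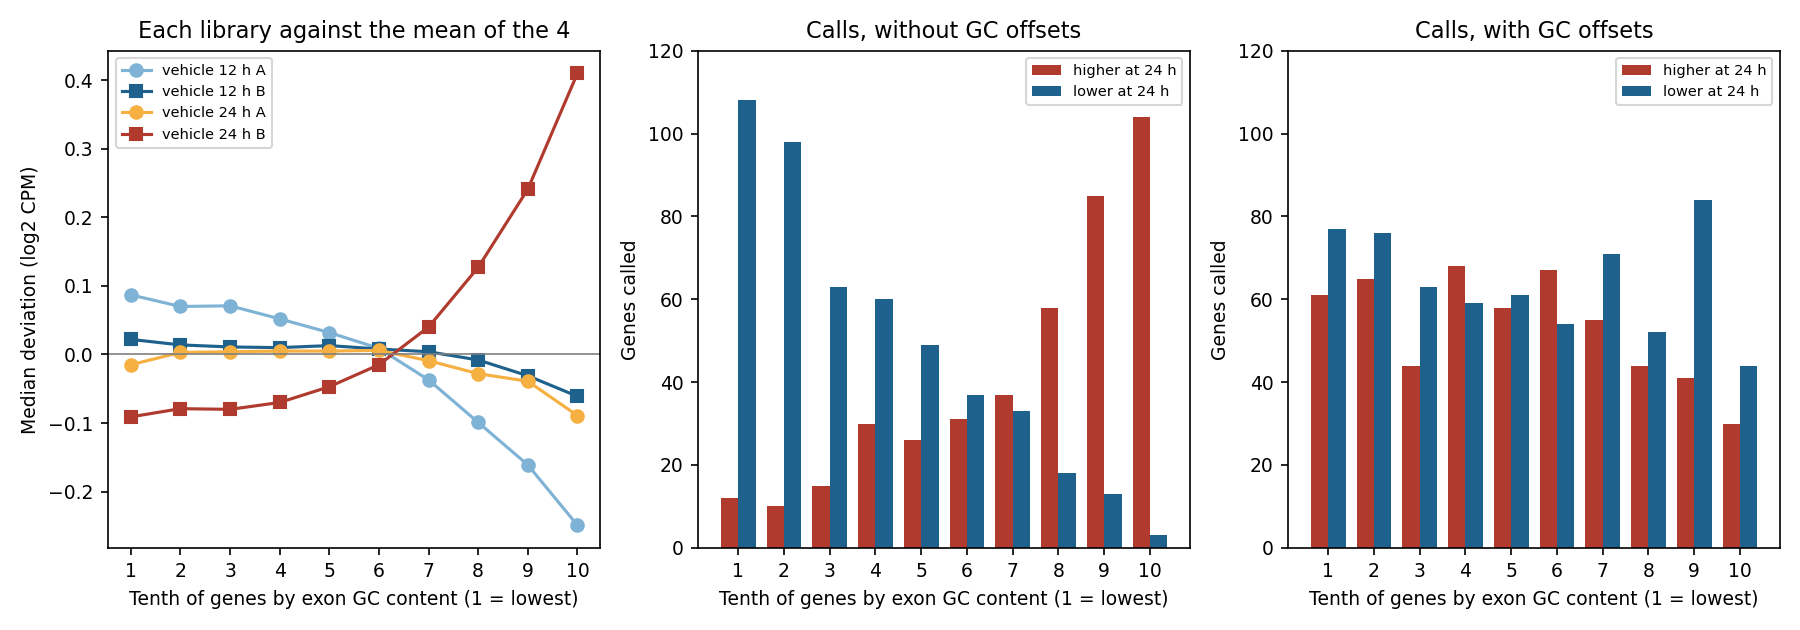
GC trend of the 4 vehicle libraries. Left, the median deviation of each library (log2 CPM) from the mean of the 4, in 10 equal bins of genes by exon GC content. Middle and right, genes called higher (red) and lower (blue) at 24 h in each bin, without and with GC offsets. Vehicle 24 h B rises to 0.41 and vehicle 12 h A falls to -0.25 in the highest bin, and the calls there change from 104 higher and 3 lower to 30 higher and 44 lower with the offsets.

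Between 12 h and 24 h, 408 genes rose (2.75% of those tested) and 482 fell (3.25%) in vehicle cells (edgeR's quasi-likelihood test, Benjamini-Hochberg adjusted p below 0.05). Most changes were small, since 70.4% of the 890 calls were under 1.5-fold, and 33 rises and 30 falls reached 2-fold. With GC offsets 533 genes were called higher (3.59%) and 641 lower (4.32%), and 686 of the 890 calls stood in the same direction. The calls also leaned on single libraries: 86 of them stood without vehicle 12 h A, 177 without vehicle 12 h B, 806 without vehicle 24 h A and 475 without vehicle 24 h B, while none changed sign. Counted afresh, the fit called 34 genes higher and 55 lower without vehicle 12 h A, 72 and 110 without vehicle 12 h B, and 1564 and 929 without vehicle 24 h A. Leaving out an EMD37 library, which leaves the vehicle libraries themselves in place, gave 164 and 226 without EMD37 12 h A, 176 and 198 without EMD37 12 h B, and 249 and 366 without EMD37 24 h B. A core of 68 genes (0.458%), 22 higher and 46 lower, was called in the full fit and in each of the 4 fits that lack a vehicle library. This set, defined after the data were seen and from fits without GC offsets, is called the core set below. All 68 of them were also called with GC offsets, in DESeq2 and with the vehicle libraries alone. These fits use the same libraries that picked the set, so they give it no separate support. The median exon GC content was 47.8% for the rises and 44.4% for the falls of the core set, against 55.7% and 41.9% for all rises and falls and 47.2% for all genes tested.

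Among genes with a mean of at least 5 CPM at 1 of the times, the largest fall was of SLC16A1, which encodes the lactate and pyruvate transporter MCT1 (ENSG00000155380, chr1:112911847-112957013 on GRCh38). It had 19.3 and 17.3 CPM at 12 h and 2.13 and 3.34 CPM at 24 h. Both 24 h libraries lay far below both 12 h libraries, a 6.74-fold difference (log2 change -2.75, SE 0.21, adjusted p = 1.46e-06, edgeR's quasi-likelihood test as throughout). SLC1A4, a transporter of alanine, serine and cysteine, had 23.1 and 22.7 CPM at 12 h and 6.66 and 7.43 CPM at 24 h (log2 change -1.70, SE 0.16, adjusted p = 1.65e-05). UNC13A, a synaptic vesicle priming protein, had 5.89 and 7.87 CPM at 12 h and 2.31 and 2.58 CPM at 24 h (log2 change -1.50, SE 0.24, adjusted p = 0.00203). CCND2, which encodes the G1 cyclin D2, had 22.1 and 26.5 CPM at 12 h and 8.88 and 8.4 CPM at 24 h (log2 change -1.49, SE 0.15, adjusted p = 7.27e-05). In all 4 of these the groups were well apart. Of all 14850 genes tested, 3794 had both 24 h libraries below both 12 h libraries and 3565 had both above. All 4 of the genes named belong to the core set. FOS (-1.38), CXCL1 (-1.22), PSAT1 (-1.19), SPX (-1.16), HMOX1 (-1.14) and SLC7A11 (-1.13) completed the 10 largest falls of that set on the log2 scale. SCG5, a secretory granule chaperone, fell by 1.48 on the log2 scale, with 13.2 and 8.64 CPM at 12 h and 4.53 and 3.12 CPM at 24 h. LANCL3 (-1.01), NUP210L (-0.95), the processed pseudogene RPL21P16 (-1.03) and the antisense RNA ELF3-AS1 (-0.96) fell as well, and reads of the last 2 cannot be told from those of RPL21 copies or of an overlapping gene. Calls here and below are also given by the libraries (in brackets) whose removal, 1 at a time, ended them: SCG5 (vehicle 12 h A), RPL21P16 (vehicle 12 h B), NUP210L (vehicle 12 h A or EMD37 12 h A), LANCL3 (any library but vehicle 24 h B and EMD37 24 h A and B) and ELF3-AS1 (any library but vehicle 24 h A and EMD37 24 h A and B), with adjusted p of up to 0.285.

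IL11 led the rises. It encodes interleukin 11, a cytokine of the IL-6 family (ENSG00000095752, chr19:55364389-55370463 on GRCh38), and had 97.8 and 103 CPM at 12 h and 318 and 388 CPM at 24 h. That is a 3.5-fold rise, with the 2 groups far apart (log2 change 1.81, SE 0.09, adjusted p = 1.76e-08). PDE7B, a cAMP-hydrolysing phosphodiesterase, had 7.93 and 8.81 CPM at 12 h and 19 and 22.5 CPM at 24 h (log2 change 1.30, SE 0.17, adjusted p = 0.000515), and its relative PDE4B had 2.74 and 2.74 CPM at 12 h and 7.03 and 6.03 CPM at 24 h (log2 change 1.25, SE 0.29, adjusted p = 0.0211). DDIT4, which encodes the mTORC1 inhibitor REDD1, had 8.94 and 8.98 CPM at 12 h and 20.4 and 22.4 CPM at 24 h (log2 change 1.25, SE 0.13, adjusted p = 7.27e-05). PTGES, the inducible prostaglandin E synthase, had 14.6 and 18.5 CPM at 12 h and 35.7 and 37.6 CPM at 24 h (log2 change 1.14, SE 0.13, adjusted p = 0.000197). At a higher level, GPRC5A, a retinoic acid-inducible membrane protein, rose evenly in both libraries, with 243 and 246 CPM at 12 h and 503 and 539 CPM at 24 h (log2 change 1.09, SE 0.08, adjusted p = 1.46e-06). Of these, all but PDE4B belong to the core set, whose other rises included BDNF, a neurotrophin (0.67), INSYN2B (0.79), the tetraspanin TSPAN14 (0.66), the splicing regulator MBNL2 (0.55) and the noncoding RNA MIR4435-2HG (0.51).

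Several of the 15 largest rises were less even. FBLN1, a matrix glycoprotein, had 1.42 and 2.48 CPM at 12 h and 5 and 5.82 CPM at 24 h (log2 change 1.44, SE 0.29, adjusted p = 0.0117). CSPG4, a membrane proteoglycan, had 2.13 and 2.4 CPM at 12 h and 4.16 and 7.86 CPM at 24 h (log2 change 1.38, SE 0.33, adjusted p = 0.0254). KLHL17, a ubiquitin ligase adaptor, had 3.15 and 2.82 CPM at 12 h and 4.35 and 10.8 CPM at 24 h (log2 change 1.32, SE 0.35, adjusted p = 0.0368). In the last 2 vehicle 24 h B read well above vehicle 24 h A, and with GC offsets the log2 changes were 1.01 and 0.89. ADAMTSL4 (1.20), KIAA1755 (1.16), GPR173 (1.14), the secreted kinase FAM20C (1.13), KCNIP3 (1.12), LRRC45 (1.11) and MIR503HG (1.10) were called on the log2 scale as well. Removal of a single library ended the calls of FBLN1 and MIR503HG (vehicle 12 h A), PDE4B, GPR173, FAM20C and KCNIP3 (vehicle 12 h A or B), ADAMTSL4 (vehicle 12 h A, vehicle 24 h B or EMD37 12 h A), LRRC45 (vehicle 12 h A or B or vehicle 24 h B), CSPG4 (vehicle 12 h A or B, vehicle 24 h B or EMD37 12 h A), KIAA1755 (any library but vehicle 24 h A and EMD37 24 h A and B) and KLHL17 (any library but vehicle 24 h A and EMD37 24 h A), with adjusted p of up to 0.392.

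**Figure D2:**
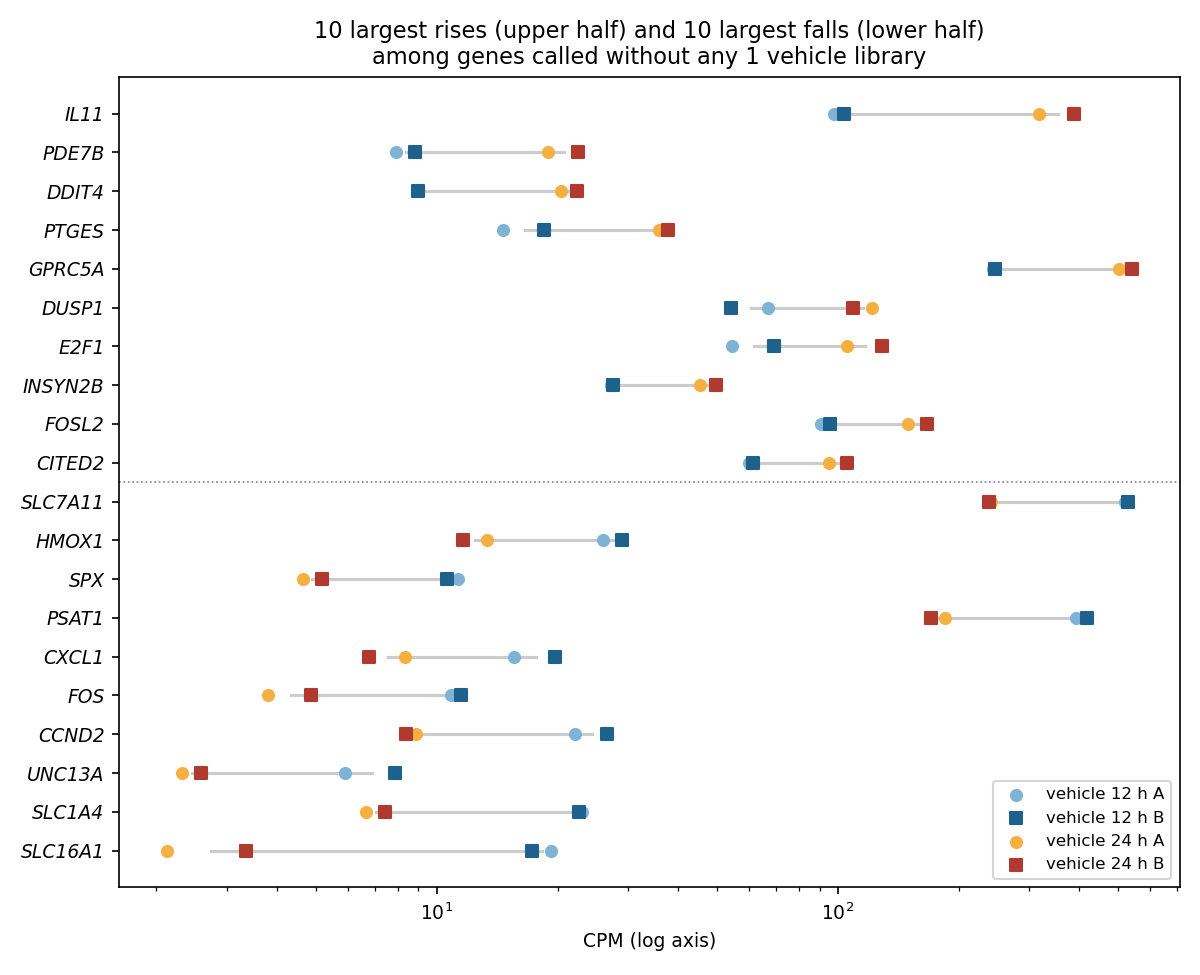
CPM in each vehicle library (log axis) of the 10 genes with the largest rises (above) and the 10 with the largest falls (below) of the core set, called without any 1 vehicle library. Circles are library A and squares library B, blue at 12 h and orange or red at 24 h, and grey lines join the group means. In every row both 24 h points lie on 1 side of both 12 h points, from IL11 at 318 and 388 CPM against 97.8 and 103 to SLC16A1 at 2.13 and 3.34 against 19.3 and 17.3. The genes were picked for their calls in these libraries, so this separation is no separate support.

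Genes of the amino acid response fell more often than they rose. ATF4 is translated when amino acids run short or other stress phosphorylates eIF2α, and it switches on transporters and enzymes that import and make amino acids. Of 31 tested members 8 fell (25.8%, against 3.25% of all genes tested) and 2 rose (6.45%, against 2.75%). The median log2 change was -0.18 beside 0.01 over all genes tested. With GC offsets 17 were called lower and 2 higher, where 4.32% of all genes tested were called lower and 3.59% higher. The median was then -0.37, so this list, whose exons have a median GC content of 53.1%, moved further from all genes (0.00). Without vehicle 24 h B the median was -0.32.

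Among the transporters, SLC7A11, the cystine importer xCT, had 521 and 528 CPM at 12 h and 241 and 238 CPM at 24 h, a 2.19-fold fall with nearly equal replicates (log2 change -1.13, SE 0.07, adjusted p = 4.68e-07). SLC1A4 is described above. SLC38A2, the glutamine transporter SNAT2, went the other way, with 396 and 372 CPM at 12 h and 503 and 478 CPM at 24 h (log2 change 0.35, SE 0.08, adjusted p = 0.0216). SLC38A1, a related glutamine carrier outside the list and chosen after its values were seen, fell, with 892 and 876 CPM at 12 h and 584 and 598 CPM at 24 h (log2 change -0.58, SE 0.07, adjusted p = 0.000392). Thus 2 members of 1 carrier family changed in opposite directions. Among the enzymes, 2 of serine synthesis fell: PSAT1, the phosphoserine aminotransferase, had 392 and 419 CPM at 12 h and 185 and 170.4 CPM at 24 h (log2 change -1.19, SE 0.08, adjusted p = 6.19e-07), and PSPH, the phosphoserine phosphatase, had 37 and 38.6 CPM at 12 h and 25.5 and 25 CPM at 24 h (log2 change -0.58, SE 0.11, adjusted p = 0.00711). MTHFD2 of mitochondrial folate metabolism had 534 and 527 CPM at 12 h and 384 and 368 CPM at 24 h (log2 change -0.49, SE 0.08, adjusted p = 0.00189), and CTH of cysteine synthesis fell by 0.79 on the log2 scale (adjusted p = 0.0184). PCK2 (-0.60), the mitochondrial form of PEP carboxykinase, and MARS1 (-0.60), the methionyl-tRNA synthetase, are core set genes outside the list that fell on the log2 scale and were chosen after their values were seen. TRIB3, a pseudokinase that restrains ATF4 (-0.45), and VLDLR, a lipoprotein receptor (-0.81), fell too. ATF4 itself had 477 and 481 CPM at 12 h and 422 and 423 CPM at 24 h, a log2 change of -0.18 that was not called (adjusted p = 0.159) but was with GC offsets (-0.37, adjusted p = 0.00632). Calls that ended when 1 library was left out were those of MTHFD2 (vehicle 12 h A), PSPH and TRIB3 (vehicle 12 h A or B), SLC38A2 (vehicle 12 h A or B or EMD37 12 h B), CTH (vehicle 12 h A or B or vehicle 24 h B) and VLDLR (vehicle 12 h A, vehicle 24 h B or EMD37 12 h A or B), with adjusted p of up to 0.246. DDIT4, a rise of the list given above, is also known to be induced by glucocorticoids and hypoxia, and another annotated gene overlaps 41.2% of its exon sequence and 33.2% of that of MTHFD2.

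The promoters of 3 of these genes are shown because they had the smallest p-values of list members with an entry in the promoter table, SLC7A11 having none there. Each runs from 250 bases before to 50 after the annotated start (RefSeq, GRCh38.p14), and the core of an ATF4 element, TGATGNAA, was searched on both strands and would be in capitals.
PSAT1 (chr9:78296875-78297174, plus strand): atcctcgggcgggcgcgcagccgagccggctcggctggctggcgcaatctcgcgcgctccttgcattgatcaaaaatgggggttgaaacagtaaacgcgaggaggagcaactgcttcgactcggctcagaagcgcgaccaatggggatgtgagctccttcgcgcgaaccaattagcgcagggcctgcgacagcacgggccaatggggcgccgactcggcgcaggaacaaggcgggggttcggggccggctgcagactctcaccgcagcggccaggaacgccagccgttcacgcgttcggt
SLC1A4 (chr2:64988229-64988528, plus strand): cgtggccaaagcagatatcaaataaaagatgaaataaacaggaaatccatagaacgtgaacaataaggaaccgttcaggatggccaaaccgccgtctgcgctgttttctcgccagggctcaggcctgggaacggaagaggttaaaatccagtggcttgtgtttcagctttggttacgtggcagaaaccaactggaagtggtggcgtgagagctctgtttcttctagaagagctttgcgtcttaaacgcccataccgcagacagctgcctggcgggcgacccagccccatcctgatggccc
DDIT4 (chr10:72273674-72273973, plus strand): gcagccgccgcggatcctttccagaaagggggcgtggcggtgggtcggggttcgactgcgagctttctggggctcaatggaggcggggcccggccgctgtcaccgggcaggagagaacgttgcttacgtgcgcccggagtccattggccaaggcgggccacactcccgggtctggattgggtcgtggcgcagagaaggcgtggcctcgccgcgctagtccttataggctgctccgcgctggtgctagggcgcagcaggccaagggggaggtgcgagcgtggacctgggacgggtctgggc
None of the 3 holds these letters in the window, and of 26 list members with a promoter entry 5 do (ASNS, ATF3, CHAC1, SLC3A2 and SLC7A1), none of them called. Of all 27305 promoters 3.67% hold the motif.

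NRF2 targets fell in part. NRF2 drives genes that make glutathione and clear oxidants and heme, and SLC7A11 is also 1 of its targets. Of 20 tested genes of this list, which includes metallothioneins, 5 fell (25%, against 3.25% of all genes tested) and 15 were not called. HMOX1, heme oxygenase 1, had 26 and 28.9 CPM at 12 h and 13.3 and 11.6 CPM at 24 h (log2 change -1.14, SE 0.12, adjusted p = 0.000122). GCLM, a subunit of the enzyme that begins glutathione synthesis, had 466 and 470.5 CPM at 12 h and 302 and 316 CPM at 24 h (log2 change -0.60, SE 0.08, adjusted p = 0.000475). TXNRD1, thioredoxin reductase, had 845 and 839.9 CPM at 12 h and 624 and 609.6 CPM at 24 h (log2 change -0.45, SE 0.07, adjusted p = 0.00266), and malic enzyme ME1 fell by 0.36 on the log2 scale. The 24 h libraries were the lower in each of these genes, as in 3794 of all 14850 genes tested. The list's median log2 change was -0.09 (-0.05 with GC offsets), beside 0.01 over all genes tested. Without vehicle 24 h B the list's median was 0.015, beside 0.007 over all genes. NQO1, the classical NRF2 target, had a log2 change of -0.26 and was not called (adjusted p = 0.0695), but was called lower with GC offsets (-0.22, adjusted p = 0.0359). TRIM16 (-0.52) and its near copy TRIM16L (-0.50), core set genes chosen after their values were seen, fell on the log2 scale as well, and counting could split reads between the 2. Leaving out a library ended the calls of TXNRD1 (vehicle 12 h A) and ME1 (any library but vehicle 24 h A), with adjusted p of up to 0.361.

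Heat shock genes were mixed. HSF1 induces chaperones when unfolded protein gathers in the cytosol. Of 19 tested, 5 fell (26.3%, against 3.25% of all genes tested) and 2 rose (10.5%, against 2.75%). The median was -0.08 (-0.11 with GC offsets). HSPA1B, an inducible HSP70, had 119 and 104 CPM at 12 h and 65.8 and 70.9 CPM at 24 h (log2 change -0.71, SE 0.09, adjusted p = 0.000588), and HSPA1A had 19 and 21.3 CPM at 12 h and 12.7 and 14.8 CPM at 24 h (log2 change -0.56, SE 0.13, adjusted p = 0.0238). These 2 genes are nearly identical, so the split of reads between them is uncertain, and another annotated gene overlaps 36.5% of the exon sequence of HSPA1B. HSPA8, the constitutive HSP70 and 1 of the most abundant messages that fell, had 10464 and 9030.2 CPM at 12 h and 7884 and 6496 CPM at 24 h (log2 change -0.44, SE 0.11, adjusted p = 0.0351). DNAJB1 (-0.31), an HSP70 cofactor, and CHORDC1 (-0.30), an HSP90 cofactor, also fell. The HSP90 cochaperones AHSA1 (0.39) and STIP1 (0.32) rose. With GC offsets CHORDC1 (-0.20, adjusted p = 0.052) and STIP1 (0.21, adjusted p = 0.057) were not called, and only HSPA1B belongs to the core set. The others ended without 1 library: AHSA1 (vehicle 12 h A or B), HSPA1A (vehicle 12 h A or B or EMD37 12 h A), STIP1 (vehicle 12 h A or B or EMD37 12 h A or B) and HSPA8, DNAJB1 and CHORDC1 (any library but vehicle 24 h A and EMD37 24 h A and B), with adjusted p of up to 0.364.

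The heat shock element, searched on both strands in the same windows, was spelled as GAA, TTC and GAA, each followed by any 2 bases before the next. HSPA1B is shown as the member with the smallest p, and HSPA8 and CHORDC1 as called members that hold the motif, chosen after the search; matches are in capitals, and those in CHORDC1 overlap.
HSPA1B (chr6:31827488-31827787, plus strand): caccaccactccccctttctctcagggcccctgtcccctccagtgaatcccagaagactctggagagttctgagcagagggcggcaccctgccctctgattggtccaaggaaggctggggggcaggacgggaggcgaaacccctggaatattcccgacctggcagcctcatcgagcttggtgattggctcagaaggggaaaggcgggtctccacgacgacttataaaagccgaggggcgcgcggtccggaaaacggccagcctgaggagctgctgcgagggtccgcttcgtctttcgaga
HSPA8 (chr11:123062087-123062386, minus strand): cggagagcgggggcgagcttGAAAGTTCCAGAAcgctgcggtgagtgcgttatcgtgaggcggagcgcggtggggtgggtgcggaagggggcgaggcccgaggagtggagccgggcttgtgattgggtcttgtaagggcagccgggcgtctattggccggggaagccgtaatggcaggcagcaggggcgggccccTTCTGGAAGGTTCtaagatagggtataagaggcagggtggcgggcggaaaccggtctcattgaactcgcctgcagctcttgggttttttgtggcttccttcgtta
CHORDC1 (chr11:90223000-90223299, minus strand): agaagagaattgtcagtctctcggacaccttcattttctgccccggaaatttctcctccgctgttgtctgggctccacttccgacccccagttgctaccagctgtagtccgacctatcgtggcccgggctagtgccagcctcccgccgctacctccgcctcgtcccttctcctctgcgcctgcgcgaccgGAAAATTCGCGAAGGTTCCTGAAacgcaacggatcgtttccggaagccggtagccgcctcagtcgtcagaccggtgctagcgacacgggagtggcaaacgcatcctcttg
HSPA8 holds 2 matches, CHORDC1 3 and HSPA1B none of this exact spelling. Of 17 list members with a promoter entry 3 hold it, DNAJA1 being the third, against 0.487% of all 27305 promoters.

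Of the cell division genes that were called, most of those of S phase rose and those of mitosis fell. E2F factors drive the genes that license and copy DNA, replication-dependent histones are made during copying, and mitotic kinases and kinesins peak in G2 and M. Of 51 tested genes of G1/S and DNA replication 9 rose (17.6%) and 2 fell (3.92%), with a median log2 change of 0.17 (0.17 with GC offsets). Of 18 histone genes 6 rose (33.3%) and 12 were not called, with a median of 0.41 (0.34 with GC offsets). Of 45 genes of G2/M and mitosis 10 fell (22.2%) and 35 were not called, with a median of -0.21 (-0.18 with GC offsets). The median log2 change over all genes tested was 0.01, and 2.75% of them rose and 3.25% fell. In bulk RNA, fewer cells in a phase and less RNA per cell cannot be told apart.

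E2F1, itself an activator of S phase genes, had 54.6 and 69.3 CPM at 12 h and 105 and 128 CPM at 24 h (log2 change 0.91, SE 0.12, adjusted p = 0.0007), and its log2 change with GC offsets was 0.59. CDC6, which loads the replicative helicase, had 135 and 119 CPM at 12 h and 187 and 166 CPM at 24 h (log2 change 0.48, SE 0.09, adjusted p = 0.00484). MCM5 of that helicase had 53 and 50.5 CPM at 12 h and 68.3 and 78 CPM at 24 h (log2 change 0.50, SE 0.10, adjusted p = 0.00907). In each of the 3 both 24 h libraries were the higher, as in 3565 of all 14850 genes tested. CHAF1A (0.47), a histone chaperone, MCM2 (0.58), cyclin E1 gene CCNE1 (0.55), the clamp PCNA (0.36) and the clamp loader RFC4 (0.45) rose on the log2 scale, as did E2F2 (0.74), which was not called with GC offsets (adjusted p = 0.0544). RBL1 (-0.35), a pocket protein that represses E2F targets, and the dUTPase gene DUT (-0.36) fell. Only E2F1 of these was in the core set, and the other calls ended in fits without 1 library: CDC6 (vehicle 12 h B), MCM5 (vehicle 12 h A or B), CHAF1A and RBL1 (vehicle 12 h A or B or vehicle 24 h B), CCNE1 and PCNA (vehicle 12 h A or B or EMD37 12 h A or B), MCM2 and DUT (any library but vehicle 24 h A and EMD37 24 h A and B), RFC4 (any library but vehicle 24 h B and EMD37 24 h A and B) and E2F2 (any library but vehicle 24 h A), with adjusted p of up to 0.34.

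Among the histones H2BC5 had 527 and 518 CPM at 12 h and 712 and 762 CPM at 24 h (log2 change 0.50, SE 0.08, adjusted p = 0.00266) and was the 1 core set gene. H2BC21 had 426 and 445 CPM at 12 h and 616 and 821 CPM at 24 h (log2 change 0.72, SE 0.13, adjusted p = 0.00637), and H2AC11 had 224 and 245 CPM at 12 h and 308 and 424 CPM at 24 h (log2 change 0.64, SE 0.12, adjusted p = 0.00899). In the latter 2 vehicle 24 h B read the higher of the pair at 24 h. H2BC15 (0.49), H2BC18 (0.41) and H2AC6 (0.41) rose too. Most of these messages lack a poly(A) tail and near-identical copies are many, so counts of single genes are uncertain. The list median without vehicle 24 h B was 0.18, under 0.41 in the full fit, and calls ended for H2BC21 and H2AC11 (vehicle 12 h A) and H2BC15, H2BC18 and H2AC6 (any library but vehicle 24 h A and EMD37 24 h A and B), with adjusted p of up to 0.253.

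On the mitotic side MKI67, the proliferation antigen Ki-67, had 681 and 728 CPM at 12 h and 456 and 481 CPM at 24 h (log2 change -0.59, SE 0.08, adjusted p = 0.00108). CENPA, the centromere histone, had 82 and 84.2 CPM at 12 h and 58 and 55.5 CPM at 24 h (log2 change -0.55, SE 0.09, adjusted p = 0.00195). CDK1, the kinase that starts mitosis, had 690.2 and 649 CPM at 12 h and 529 and 469.7 CPM at 24 h (log2 change -0.42, SE 0.08, adjusted p = 0.00899). AURKA, the spindle pole kinase, had 617 and 577 CPM at 12 h and 472 and 421 CPM at 24 h (log2 change -0.42, SE 0.08, adjusted p = 0.00598). All 4 were lower in both 24 h libraries than in either 12 h library, as were 3794 of all 14850 genes tested. CCNF (-0.45) and the kinesins KIF23 (-0.68), KIF14 (-0.40), KIF18A (-0.34), KIF11 (-0.32) and KIF2C (-0.32) made up the rest of the falls. The core set also held mitotic genes outside the list, chosen after their values were seen: FAM83D, a spindle protein, with 325 and 301 CPM at 12 h and 178 and 166 CPM at 24 h (log2 change -0.86, SE 0.07, adjusted p = 7.91e-06), the CENPA chaperone HJURP (-0.61) and CDCA2 (-0.63). MKI67 and CENPA were in the core set, and the other list calls ended without 1 library: CDK1, AURKA and KIF14 (vehicle 12 h A), CCNF and KIF23 (vehicle 12 h A or B), KIF11 and KIF2C (any library but vehicle 24 h A and EMD37 24 h A and B) and KIF18A (any library but vehicle 24 h A), with adjusted p of up to 0.412. KIF18A was not called with GC offsets either (adjusted p = 0.0553).

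**Figure D3:**
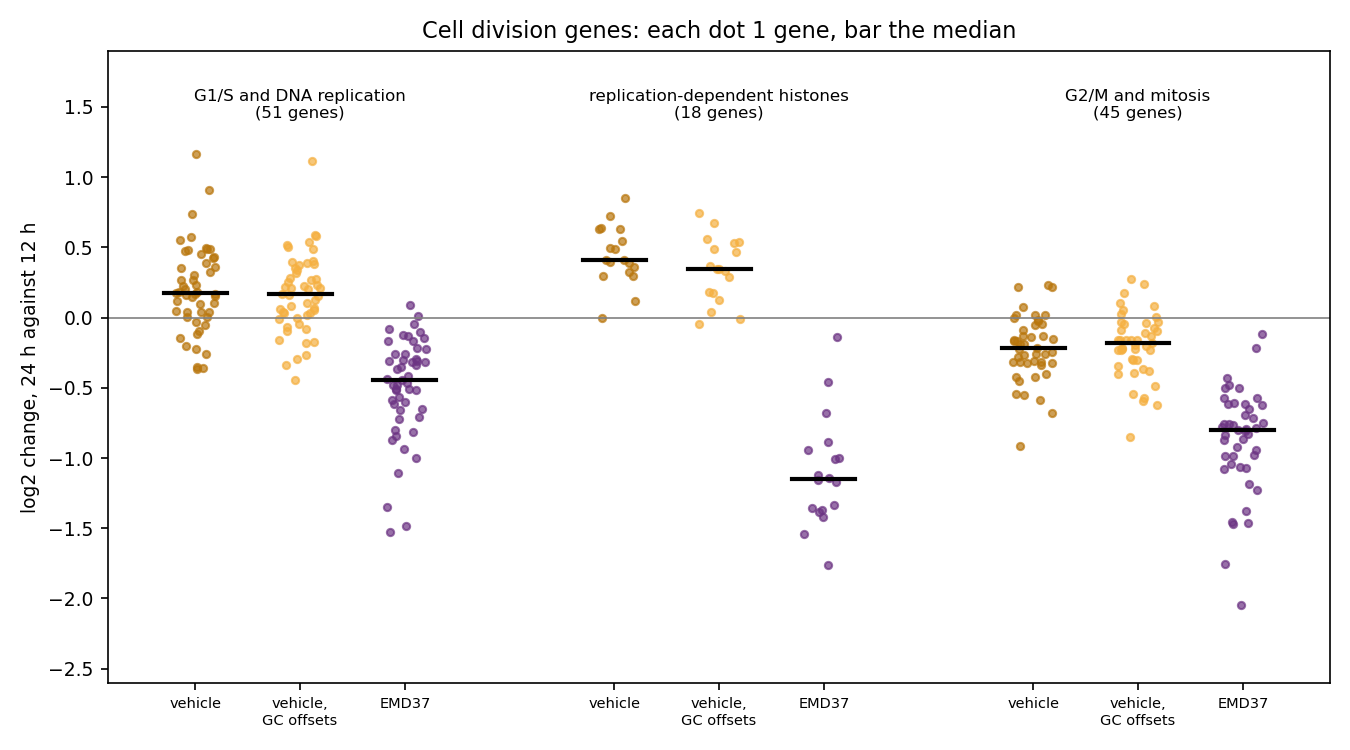
log2 change from 12 h to 24 h of each tested gene of 3 cell division lists (dots, with the median as a bar), in vehicle cells without and with GC offsets and in EMD37 cells. Medians in vehicle cells were 0.17 for G1/S and DNA replication, 0.41 for histones and -0.21 for G2/M and mitosis, and in EMD37 cells -0.44, -1.15 and -0.80.

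Immediate early genes and MAPK feedback genes moved in both directions. Growth factors reach FOS, MYC and their relatives through ERK within minutes, and DUSP and Sprouty proteins feed back on the cascade. Of 30 tested 5 rose (16.7%, against 2.75% of all genes tested) and 3 fell (10%, against 3.25%), with a median of 0.02. FOS had 10.9 and 11.5 CPM at 12 h and 3.79 and 4.85 CPM at 24 h (log2 change -1.38, SE 0.20, adjusted p = 0.00112). FOSL2, another AP-1 subunit, had 90.7 and 95.5 CPM at 12 h and 149.8 and 166 CPM at 24 h (log2 change 0.76, SE 0.09, adjusted p = 0.000197). Members of 1 transcription factor family thus changed in opposite directions, and both belong to the core set. DUSP1, a MAPK phosphatase that is also a glucocorticoid target, had 67.1 and 54 CPM at 12 h and 122 and 109 CPM at 24 h (log2 change 0.94, SE 0.10, adjusted p = 9.18e-05), and MYC had 131 and 130.0 CPM at 12 h and 178 and 182 CPM at 24 h (log2 change 0.46, SE 0.07, adjusted p = 0.00203). SPRY2 (0.41) and DUSP5 (0.30) rose, and KLF10 (-0.34) and SPRED1 (-0.29), an inhibitor of RAS signalling, fell. With GC offsets DUSP5 (0.18) and SPRED1 (-0.19) were not called, and single libraries ended the calls of SPRY2 (vehicle 12 h A or B), KLF10 (any library but vehicle 24 h A and EMD37 24 h A and B), DUSP5 (any library but vehicle 24 h B) and SPRED1 (any library but vehicle 24 h A), with adjusted p of up to 0.354. The EGF family list holds ligands and also EGFR, ERBB2 and ERRFI1. None of its 10 tested genes was called by edgeR, with 2 at an unadjusted p below 0.05 and 0 called by DESeq2. With GC offsets the ligand genes EREG and HBEGF were called higher, where 3.59% of all genes tested were.

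Secreted signals other than IL11 changed too. Of NF-kB targets and inflammatory cytokines 4.17% were called higher and 8.33% lower, against 2.75% and 3.25% of all genes tested. In the list of NF-kB targets and inflammatory cytokines IL11 rose and 2 of 24 fell: CXCL1, a neutrophil attractant, had 15.6 and 19.8 CPM at 12 h and 8.33 and 6.79 CPM at 24 h (log2 change -1.22, SE 0.17, adjusted p = 0.000752), and PTGS2, cyclooxygenase 2, had 11.6 and 10.0 CPM at 12 h and 6.38 and 5.49 CPM at 24 h (log2 change -0.85, SE 0.16, adjusted p = 0.00689). PTGES, which acts just after PTGS2 in prostaglandin synthesis, rose as given above. IL6ST, the receptor subunit gp130 that IL-11 and IL-6 share, was chosen after its values were seen and fell within the core set, with 996 and 964 CPM at 12 h and 675 and 678 CPM at 24 h (log2 change -0.53, SE 0.08, adjusted p = 0.00133). In 1 fit the call was lost for PTGS2 (vehicle 12 h A), with adjusted p of up to 0.114.

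Interferon-stimulated genes rose in small number. Of 36 tested 5 rose (13.9%, against 2.75% of all genes tested) and 1 fell (2.78%, against 3.25%). The median was 0.12. With GC offsets 8 were called higher and 1 lower, where 3.59% and 4.32% of all genes tested were. IFIT2, an antiviral RNA-binding protein, had 216 and 194 CPM at 12 h and 341 and 302 CPM at 24 h (log2 change 0.65, SE 0.09, adjusted p = 0.000881). Its neighbours on chromosome 10 did likewise, IFIT1 with 182 and 164 CPM at 12 h and 268 and 252 CPM at 24 h (log2 change 0.58, SE 0.08, adjusted p = 0.00114) and IFIT3 with 258 and 234 CPM at 12 h and 368 and 347 CPM at 24 h (log2 change 0.54, SE 0.08, adjusted p = 0.00121). All 3 belong to the core set. IRF1 (0.52) and IFI44 (0.43) rose and the guanylate-binding protein gene GBP1 (-0.46) fell, with calls that ended for GBP1 (vehicle 12 h A or B), IRF1 (vehicle 12 h A or B, vehicle 24 h B or EMD37 12 h A) and IFI44 (any library but vehicle 24 h B), with adjusted p of up to 0.259. APOL6 (-0.51), known as an interferon-induced gene and chosen after its values were seen, fell within the core set.

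Genes of glycolysis rose where they were called, and those of lipid synthesis were called in both directions. Of 32 genes of glycolysis and hypoxia 4 rose (12.5%, against 2.75% of all genes tested) and 28 were not called. Of the 4, only HK2, hexokinase 2, was called with GC offsets. HK2 had 82.6 and 86.1 CPM at 12 h and 105 and 110.5 CPM at 24 h (log2 change 0.35, SE 0.08, adjusted p = 0.0157). GAPDH, the most abundant of them, had 2075 and 2295 CPM at 12 h and 2559 and 2962 CPM at 24 h (log2 change 0.34, SE 0.09, adjusted p = 0.0438), and its log2 change with GC offsets was 0.06 (adjusted p = 0.681). SLC16A3, the lactate exporter MCT4, had 114 and 136 CPM at 12 h and 146 and 222 CPM at 24 h (log2 change 0.55, SE 0.15, adjusted p = 0.0486), with 0.11 under offsets (adjusted p = 0.362). VEGFA (0.33) had 0.19 with offsets (adjusted p = 0.0841). The exons of SLC16A3 have a GC content of 66.0%, and its reading of 222 CPM in vehicle 24 h B stood apart from 114 to 146 CPM in the other 3. Of 21 genes of fatty acid and lipid synthesis 3 fell (14.3%, against 3.25% of all genes tested) and 1 rose (4.76%, against 2.75%). GPAM, which starts triglyceride assembly, had 128 and 106 CPM at 12 h and 76 and 72.3 CPM at 24 h and belongs to the core set (log2 change -0.66, SE 0.09, adjusted p = 0.00114), and SCD, the stearoyl-CoA desaturase, had 249 and 259 CPM at 12 h and 194 and 183 CPM at 24 h (log2 change -0.43, SE 0.07, adjusted p = 0.00357). SCD5 (0.42) rose. Of 25 cholesterol genes LSS (0.58) rose and HMGCS1 (-0.43) and SC5D (-0.35) fell, SC5D not with offsets (adjusted p = 0.0588). Those calls were 4% higher and 8% lower, against 2.75% and 3.25% of all genes tested. The removal of 1 library ended the calls of HK2 and SCD (vehicle 12 h A or B), VEGFA and HMGCS1 (any library but vehicle 24 h A and EMD37 24 h A and B), LSS (any library but vehicle 12 h B, vehicle 24 h A and EMD37 24 h A), SLC16A3 (any library but vehicle 24 h A and EMD37 24 h A) and GAPDH, SCD5 and SC5D (any library but vehicle 24 h A), with adjusted p of up to 0.345.

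Matrix, TGF-beta and YAP target genes showed single movers. THBS1, thrombospondin 1, was the most abundant core set gene, with 3847 and 3641 CPM at 12 h and 2546 and 2513 CPM at 24 h (log2 change -0.57, SE 0.08, adjusted p = 0.00121). TGFB2, a TGF-beta ligand that shares the YAP target list with it, rose, with 184 and 188 CPM at 12 h and 278 and 286 CPM at 24 h (log2 change 0.60, SE 0.07, adjusted p = 0.000197). CRIM1 (0.29) of that list rose too. Of the 22 tested YAP targets 9.09% rose and 4.55% fell, against 2.75% and 3.25% of all genes tested. FN1, fibronectin, had 411 and 398 CPM at 12 h and 304 and 294 CPM at 24 h (log2 change -0.44, SE 0.09, adjusted p = 0.0117). TIMP3, an inhibitor of matrix proteases, rose, with 128 and 136 CPM at 12 h and 183 and 189.7 CPM at 24 h (log2 change 0.50, SE 0.08, adjusted p = 0.00175). The matrix list thus had 2 rises, of TIMP3 and COL13A1 (0.47), and 4 falls, among them FN1, ITGAV (-0.33) and VCAN (-0.69), of 39 tested. Those calls were 5.13% higher and 10.3% lower. Of 17 TGF-beta and BMP targets PMEPA1 (-0.53), SKIL (-0.46) and TGFBI (-0.36) fell and SMAD6 (0.81), a BMP-induced inhibitor, and BHLHE40 (0.36) rose. In this list 11.8% were called higher and 17.6% lower. SERPINE2 (-0.60), a protease inhibitor chosen after its values were seen, fell within the core set. Outside that set, calls were lost for TIMP3, COL13A1, SKIL and SMAD6 (vehicle 12 h A), PMEPA1 (vehicle 12 h B), FN1 (vehicle 12 h A or B), ITGAV (vehicle 12 h A or B or EMD37 12 h A or B), CRIM1 and BHLHE40 (any library but vehicle 24 h A and EMD37 24 h A and B), TGFBI (any library but vehicle 24 h A and EMD37 24 h B) and VCAN (any library but vehicle 24 h A), with adjusted p of up to 0.315.

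The list of FOXO targets and growth factor withdrawal genes, which also holds FOXO1, FOXO3 and FOXO4, had 2 rises among 14. That was 14.3%, against 2.75% of all genes tested, and the 1 recovered member of the list fell. CITED2, a transcriptional coregulator, had 59.9 and 61.6 CPM at 12 h and 94.9 and 106 CPM at 24 h (log2 change 0.72, SE 0.09, adjusted p = 0.000211) and belongs to the core set. BCL6, a repressor, had 5.59 and 6.76 CPM at 12 h and 13.3 and 10.6 CPM at 24 h (log2 change 0.95, SE 0.19, adjusted p = 0.00952), and 1 fit lost the call of BCL6 (vehicle 12 h A), with adjusted p of up to 0.138. Of the circadian clock list BMAL1 (-0.56) fell and BHLHE40 rose among 16, and several fits lost the call of BMAL1 (any library but vehicle 24 h A), with adjusted p of up to 0.334. Of the p53 and CDK inhibitor list TNFRSF10B (0.34) rose and MDM2 (-0.29) and ZMAT3 (-0.36) fell. Those calls were 5.88% higher and 11.8% lower, against 2.75% and 3.25% of all genes tested. The clock list had 6.25% called each way. CDKN1A, the CDK inhibitor p21, had 44.4 and 47.3 CPM at 12 h and 35.8 and 39.8 CPM at 24 h and was not called (adjusted p = 0.0906), but with GC offsets it was called lower (-0.48, adjusted p = 0.0015). Fits without 1 library lost the calls of ZMAT3 (vehicle 12 h A or B or EMD37 12 h A or B), TNFRSF10B (any library but vehicle 24 h A and EMD37 24 h A and B) and MDM2 (any library but vehicle 24 h A and EMD37 24 h B), with adjusted p of up to 0.293.

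Lists of the general machinery differed in their share of calls. Of 27 ER chaperones and folding factors, 34 lysosomal genes and 15 genes of lipid droplets and fatty acid oxidation edgeR called none, with medians of -0.06, 0.10 and 0.03. At an unadjusted p below 0.05 stood 8, 6 and 3 of them, and DESeq2 called 0, 0 and 0. For comparison, 3436 of all 14850 genes tested had an unadjusted p below 0.05. Of 71 cytosolic ribosomal proteins 5 rose (7.04%, against 2.75% of all genes), with a median of 0.07. RPS20 had 687 and 646 CPM at 12 h and 861 and 771 CPM at 24 h (log2 change 0.29, SE 0.08, adjusted p = 0.039), and RPS2 had 527 and 624 CPM at 12 h and 685 and 776 CPM at 24 h (log2 change 0.34, SE 0.09, adjusted p = 0.0351). With GC offsets RPS20 (0.35) kept its call and RPS2 (0.13, adjusted p = 0.213) did not, and other annotated genes overlap 25.6% of its exon sequence. Of 24 splicing factors 5 fell (20.8%, against 3.25% of all genes), among them the cold-inducible RBM3, with 1229 and 1293 CPM at 12 h and 1044 and 1043 CPM at 24 h (log2 change -0.27, SE 0.07, adjusted p = 0.0424), and SRSF6 (-0.34). The list's median went from -0.08 to 0.01 with GC offsets, and its exons have a median GC content of 40.5%. In fits that lack 1 library calls were lost for RPS2 and SRSF6 (any library but vehicle 24 h A and EMD37 24 h A and B), RBM3 (any library but vehicle 24 h A and EMD37 24 h B) and RPS20 (any library but vehicle 24 h B), with adjusted p of up to 0.361.

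Further lists of core functions held between 1 and 6 calls each, where 2.75% of all genes tested were called higher and 3.25% lower. NDUFA1 (0.53) and UQCRC1 (0.29), subunits of respiratory complexes I and III, rose among 51 genes of oxidative phosphorylation (3.92%), and PSMB6 (0.38) among 30 proteasome subunits (3.33%). Both shares were near that of all genes. CAD (0.36), which begins pyrimidine synthesis, and WDR74 (0.29) rose among 37 genes of ribosome biogenesis (5.41%). With GC offsets UQCRC1, CAD and WDR74 were not called (adjusted p = 0.62, 0.13 and 0.111). MAP1LC3B, which encodes the autophagosome protein LC3B, had 72 and 90.8 CPM at 12 h and 62.5 and 54.7 CPM at 24 h (log2 change -0.47, SE 0.11, adjusted p = 0.0187) and fell with ATG12 (-0.29, adjusted p with GC offsets = 0.0981) among 25 autophagy genes. The falls made up 8% of the autophagy list. CALD1 (-0.29), caldesmon, fell among 24 actin and SRF targets (4.17%, near the share of all genes). With GC offsets 4 of this list were called lower, CALD1 and the cytoskeletal genes ACTB, ACTG1 and ACTN1, where 4.32% of all genes tested were. The snoRNA hosts SNHG12 (-0.44) and ZFAS1 (-0.29) fell among 12 noncoding RNAs (16.7%). Other annotated genes overlap 46.9% of the exon sequence of ZFAS1, 44.5% of that of NDUFA1 and 22.3% of that of WDR74. Of 201 zinc finger genes of chromosome 19, whose exons have a median GC content of 43.3%, 6 fell (2.99%, near the 3.25% of all genes), with a median of -0.08 (-0.03 with GC offsets). With GC offsets 4 of them were called higher and 6 lower, where 3.59% and 4.32% of all genes tested were. ZNF441 had the largest of the falls without offsets, with 43.7 and 39.2 CPM at 12 h and 24.2 and 24.2 CPM at 24 h (log2 change -0.77, SE 0.12, adjusted p = 0.00213). Single libraries ended the calls of MAP1LC3B (vehicle 12 h B), ZNF441 (vehicle 12 h A), PSMB6 (vehicle 12 h A or B), SNHG12 (vehicle 12 h A or B or vehicle 24 h B), NDUFA1 (vehicle 12 h A or B or EMD37 12 h A or B), CAD (any library but vehicle 24 h A and EMD37 24 h A), ATG12 and CALD1 (any library but vehicle 24 h A and EMD37 24 h B), WDR74 and ZFAS1 (any library but vehicle 24 h A) and UQCRC1 (any library), with adjusted p of up to 0.376.

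**Figure D4:**
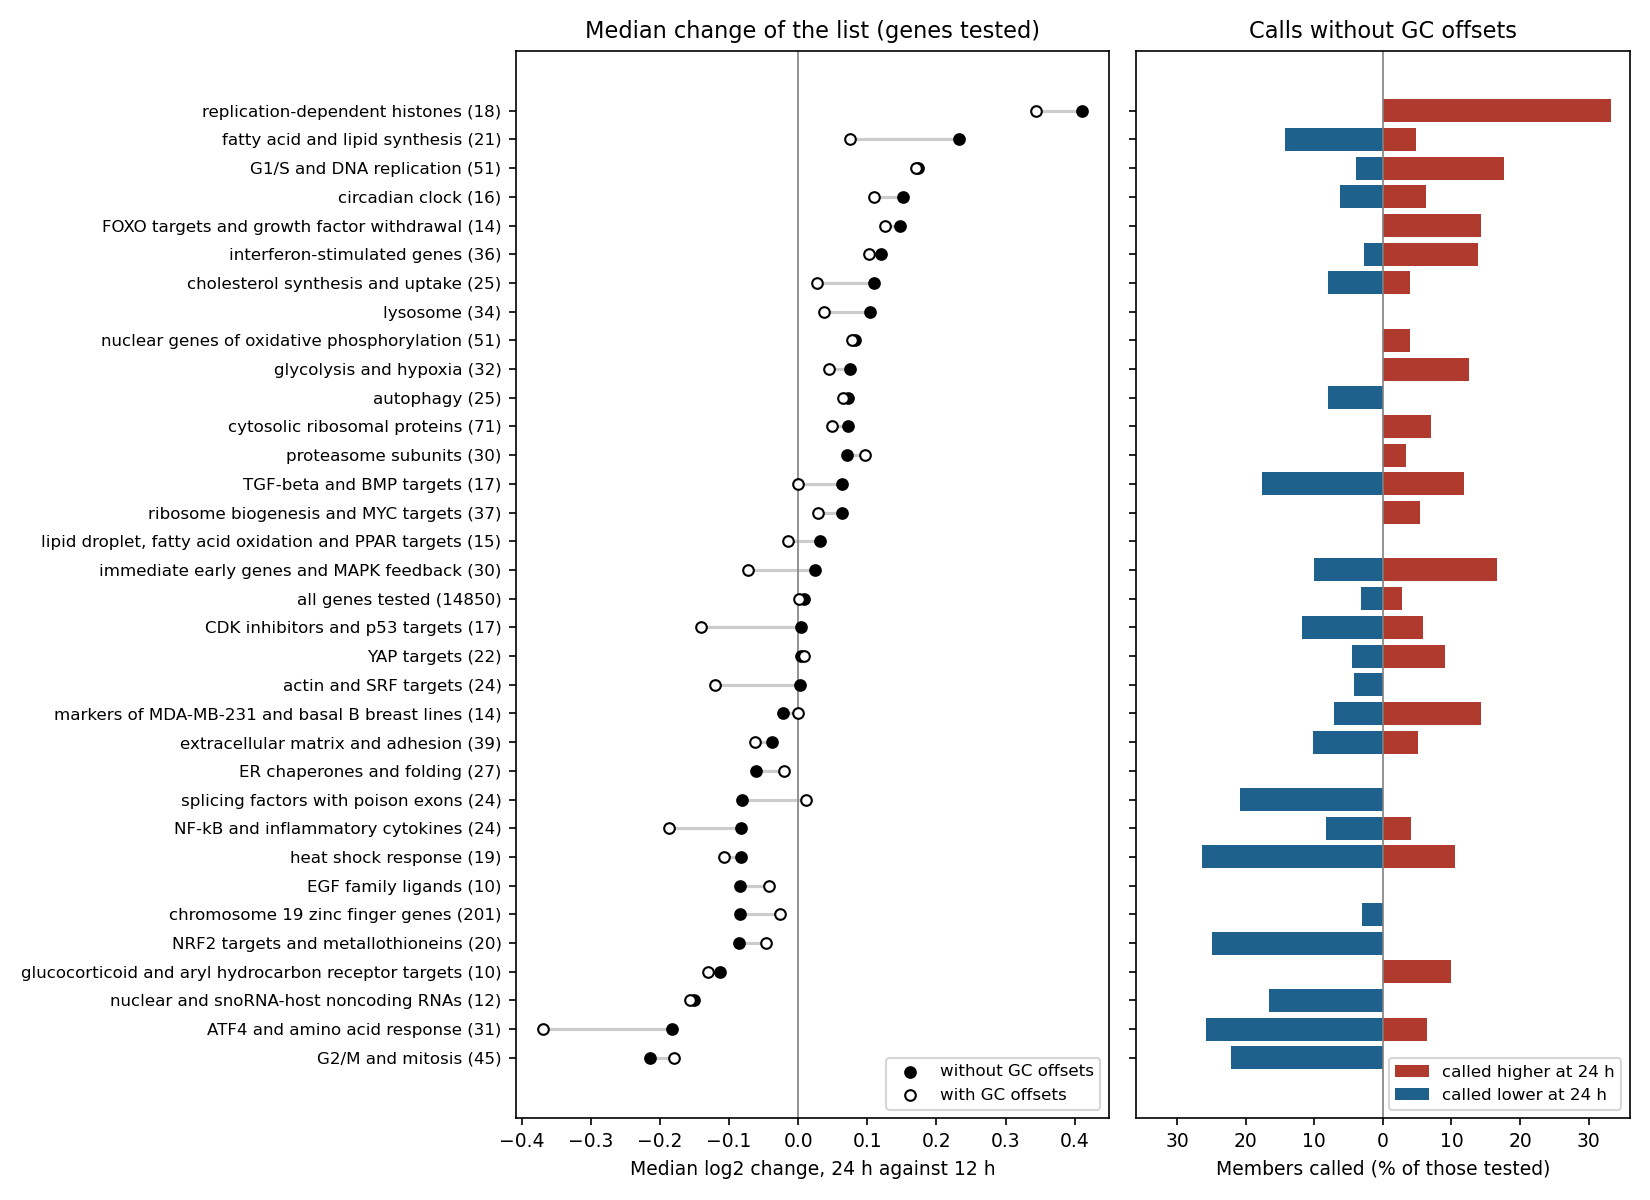
Gene lists with at least 10 tested members, ordered by median log2 change from 12 h to 24 h in vehicle cells (number tested in brackets). Left, the median without (filled) and with (open) GC offsets. Right, the percentage of members called higher (red) or lower (blue) without offsets. Histones (0.41) and G2/M and mitosis (-0.21) are at the ends, the ATF4 list moves from -0.18 to -0.37 with offsets, and all genes tested sit at 0.01.

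Among the most abundant called genes, TMSB10, which encodes an actin-sequestering thymosin, had 2909.6 and 2827 CPM at 12 h and 3586 and 3934 CPM at 24 h (log2 change 0.39, SE 0.08, adjusted p = 0.0131). FLII, an actin-severing protein, had 673 and 729 CPM at 12 h and 818 and 969 CPM at 24 h (log2 change 0.35, SE 0.09, adjusted p = 0.0273) but 0.07 with GC offsets (adjusted p = 0.622). MCL1, an antiapoptotic BCL2 relative, had 1302 and 1197 CPM at 12 h and 985 and 949.9 CPM at 24 h (log2 change -0.37, SE 0.08, adjusted p = 0.0133). Together with GAPDH, RPS2, RPS20, HSPA8, THBS1 and RBM3 these were among the 5 most abundant rises and 5 most abundant falls. Of those named only THBS1 belongs to the core set, and the removal of 1 library ended the calls of TMSB10 and MCL1 (vehicle 12 h A or B) and FLII (any library but vehicle 24 h A and EMD37 24 h A and B), with adjusted p of up to 0.258.

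TFF1, a secreted trefoil peptide of luminal cells, was the 1 marker of another cell type that was called, at a level near the limit of detection. It had 1.22 and 1.71 CPM at 12 h and 0.37 and 0.215 CPM at 24 h, from 12, 20, 4 and 2 reads (log2 change -2.27, SE 0.58, adjusted p = 0.0331). The summed luminal list was 22.3 and 23.9 CPM at 12 h and 17.7 and 23.9 CPM at 24 h, so the groups overlapped, and several fits lost the call of TFF1 (any library but vehicle 24 h A and EMD37 24 h A), with adjusted p of up to 0.19. Among the 14 tested markers of the line itself KRT8 (0.48) and KRT19 (0.75) rose (14.3%, against 2.75% of all genes tested). KRT19 was not called with GC offsets (adjusted p = 0.126), and calls ended for KRT8 (vehicle 12 h A or B, vehicle 24 h B or EMD37 12 h A) and KRT19 (any library but vehicle 24 h A), with adjusted p of up to 0.217.

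Genes whose reads were recovered from the normalized table were tested in a separate fit of 17863 genes, in which 472 rose (2.64%) and 438 fell (2.45%). Of the 3042 recovered genes 40 rose and 28 fell. TXNIP, a thioredoxin-binding protein that follows glucose supply, had 311 and 306 CPM at 12 h and 185 and 159.7 CPM at 24 h (log2 change -0.84, SE 0.09, adjusted p = 2.34e-05). MALAT1, an abundant nuclear RNA, had 3013 and 3195 CPM at 12 h and 1906 and 1884 CPM at 24 h (log2 change -0.71, SE 0.09, adjusted p = 0.000167). Both 24 h libraries lay well below both 12 h libraries in each. ACACA, which commits acetyl-CoA to fatty acids, had 41.5 and 36.8 CPM at 12 h and 58.3 and 53.9 CPM at 24 h (log2 change 0.52, SE 0.10, adjusted p = 0.00819). The histone genes H2BC17 (0.50), H4C2 (0.54) and H2AC4 (0.34) rose, 3 of 12 recovered histones tested. With GC offsets H4C2 kept its call (0.45, adjusted p = 0.0105), and H2BC17 (0.25, adjusted p = 0.0513) and H2AC4 (0.08, adjusted p = 0.635) did not. ARRDC4, a relative of TXNIP that answers to the same glucose-sensing factors, is in the count table and fell, with 19.1 and 20.4 CPM at 12 h and 13.6 and 13.9 CPM at 24 h (log2 change -0.52, SE 0.14, adjusted p = 0.0391). Its call too rested on single libraries: ARRDC4 (any library but vehicle 24 h A), with adjusted p of up to 0.19. The largest recovered rises were of a gene without a symbol (ENSG00000272121, 1.40), LINC01085 (1.05) and SNAI3-AS1 (1.01), and the largest falls of ENSG00000273760 (-1.38), ZBED3-AS1 (-1.24) and CD44-AS1 (-0.95) on the log2 scale. SNAI3-AS1 was not called with GC offsets (0.76, adjusted p = 0.0882). The fit of recovered reads was not repeated without single libraries. The TruSeq V2 kit named in the labels does not mark strand, so reads of these antisense RNAs cannot be told from those of their partners.

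The change with time could be set beside that of EMD37 cells, which shares no library with it. Of genes that rose in vehicle cells 70.3% also had a positive log2 change in EMD37 cells, against 48.5% of all genes tested, and of genes that fell 67.4% had a negative one, against 51.5%. The change of EMD37 cells also varied with GC content, from a median of -0.04 in the bin of lowest GC to 0.21 in that of highest GC. In the fit with GC offsets, an alternative chosen after seeing the data for this comparison, the shares were 68.7% against 49.8% and 67.9% against 50.2%. The difference between the 2 changes was called for 2361 genes (15.9%) and for 45 of the 68 in the core set. The core set was picked for its change in vehicle cells, which is also part of the difference. Its share therefore cannot be compared with that of all genes. The first of these counts was 1389 without vehicle 12 h A, 1569 without vehicle 12 h B, 1441 without EMD37 12 h A, 1190 without EMD37 12 h B and 1432 without EMD37 24 h B. IL11 changed by 1.81 in vehicle cells and 2.19 in EMD37 cells (adjusted p of the difference = 0.0498). GPRC5A, with 1.09 and 1.35, and HMOX1, with -1.14 and -1.22, gave no call for the difference (adjusted p = 0.136 and 0.756). CXCL1 (-1.22 and -1.34, adjusted p = 0.755), DUSP1 (0.94 and 0.96, adjusted p = 0.915) and TGFB2 (0.60 and 0.82, adjusted p = 0.152) likewise gave none. Like changes with time did not mean like levels. At 12 h HMOX1 had 1586 and 1649 reads in EMD37 cells and 256 and 338 in vehicle cells. CXCL1, DUSP1 and GPRC5A also had more reads in both EMD37 libraries at 12 h. TGFB2 overlapped, with 2098 and 1885 reads against 1808 and 2197.

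Other core set genes changed differently in the 2 treatments. SLC7A11 changed by -1.13 in vehicle cells and by 0.81 in EMD37 cells (adjusted p of the difference = 9.5e-09). CCND2 changed by -1.49 and 0.90 (adjusted p = 1.05e-06). SLC38A1 changed by -0.58 and 0.63 (adjusted p = 1.23e-06). In these 3 a fall in vehicle cells stood beside a positive change in EMD37 cells. The reverse held for H2BC5, with 0.50 and -1.16 (adjusted p = 2.11e-07), and for E2F1, with 0.91 and -0.23 (adjusted p = 0.000363). The fall of SLC16A1 was the larger in vehicle cells, -2.75 against -0.45 (adjusted p = 2.8e-05), as was that of PSAT1, -1.19 against -0.49 (adjusted p = 0.000605). MKI67 and FAM83D fell less in vehicle cells, -0.59 against -1.23 (adjusted p = 0.0016) and -0.86 against -1.53 (adjusted p = 0.000491). CITED2, with 0.72 against 2.21 (adjusted p = 8.19e-07), rose less.

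**Figure D5:**
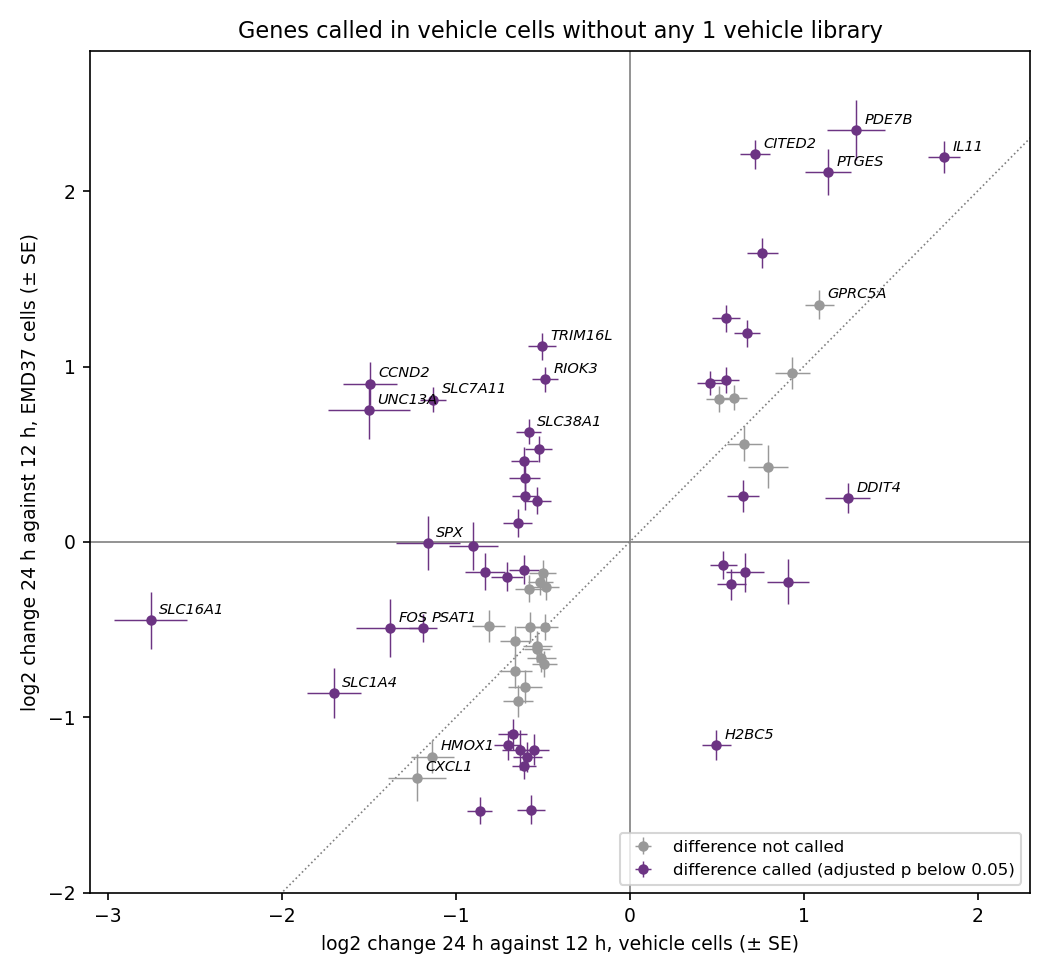
log2 change from 12 h to 24 h in vehicle cells (horizontal) and in EMD37 cells (vertical) of the 68 core set genes, with SE bars, where the dotted line marks equal change and purple marks a called difference. SLC7A11 (-1.13 and 0.81) and CCND2 (-1.49 and 0.90) lie upper left, H2BC5 (0.50 and -1.16) lower right, and IL11 (1.81 and 2.19) upper right.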

How the data were processed

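RNA of MDA-MB-231 cells was sequenced from 8 libraries, 2 per group, made with the TruSeq V2 kit per the labels. The authors deposited raw read counts per Ensembl gene for 36715 genes, and a second table of normalized signal, in which each deposited value is a read count divided by 1 size factor per library. The submitters' processing notes name FastQC, STAR, DESeq2 and build hg38, without versions. The counting program, annotation and strand setting are not given in the sources used here. Multiplying the 6912 genes found only in the normalized table by the size factors gave whole reads for 55296 of 55296 values (within 0.01), or 8.26% to 11.66% of all reads. These recovered genes were tested in a separate fit.

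edgeR 4.0.16 (R 4.3.3, limma 3.58.1) fitted 1 mean per group over 8 libraries with TMM scaling and filterByExpr (minimum count of 10), which left 4 residual degrees of freedom and a biological coefficient of variation of 0.0733. The quasi-likelihood test was adjusted by Benjamini-Hochberg, with a threshold of 0.05. CPM are TMM-scaled. The fit was checked on simulated counts. GC content came from GENCODE release 29 exons of all 43627 genes, and offsets removed a lowess trend (span 0.3). DESeq2 1.42.0, other scalings, filters, a replicate block and leave-one-out fits were alternatives. One read was worth 0.0874 to 0.111 CPM in the vehicle libraries.

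The comparison, its gene lists and its tests were chosen with earlier results of these data known. Named genes are from the 15 largest changes each way (mean of at least 5 CPM at 1 time, groups not overlapping), up to 4 members per list by smallest p, the 5 most abundant calls each way and the 3 largest recovered changes each way. The further called list members, and the core set genes, were named after their values were seen. Promoters are from RefSeq, and motifs of the other lists were not searched. A few genes that these rules take are not reported here.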

Additional observations from a re-analysis of the deposited data

Results flagged for a closer look

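Each gene here was set apart because a test of the difference itself found its change from 12 h to 24 h to differ between EMD37 cells and vehicle cells (edgeR's quasi-likelihood test, adjusted over all genes tested, a call made for 15.9% of them). Values are the EMD37 log2 change minus the vehicle log2 change. The genes were taken from those already picked for their change in vehicle cells, which is part of the difference. Their number is therefore no measure of how often the treatments differed. SLC16A1 (2.31, SE 0.27) and PSAT1 (0.70, SE 0.11) fell in vehicle cells beside a smaller negative change in EMD37 cells. CCND2 (2.40, SE 0.20), SLC7A11 (1.94, SE 0.10) and SLC38A1 (1.21, SE 0.10) fell in vehicle cells beside a positive change in EMD37 cells. CITED2 (1.49, SE 0.12) and IL11 (0.39, SE 0.13, adjusted p = 0.0498) rose more in EMD37 cells. The difference was negative for H2BC5 (-1.65, SE 0.12), E2F1 (-1.14, SE 0.18), FAM83D (-0.67, SE 0.11) and MKI67 (-0.64, SE 0.12). With 2 libraries per group no single library could be tested as standing apart from its group.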

How the results depend on the processing

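The full fit called 408 genes higher and 482 lower at 24 h and 2361 with a different change in EMD37 cells. Fewer genes were called higher by DESeq2 (267), and more with no filter on low counts (623) or with GC and length offsets (614). With the vehicle libraries alone 42 were called higher and 83 lower, and, in a setting added after the data were seen, 276 and 358 when GC offsets were used as well. Leaving out 1 library at a time gave 34 to 1564 genes higher, 55 to 929 lower and 1190 to 3236 for the difference, where the group left with 1 library was assumed to vary like the others. Rises made up 45.8% of calls in the full fit and 43.7% and 46.3% with other scalings, 33.6% with the vehicle libraries alone and 62.7% without vehicle 24 h A. Rises and falls of at least 2-fold numbered 33 and 30 in the full fit, 12 and 12 by DESeq2, 62 and 55 with no filter, 5 and 11 with the vehicle libraries alone, and 6 and 12 to 219 and 72 when 1 library was left out (without vehicle 12 h A and without vehicle 24 h A). The labels do not say whether the letters A and B pair samples across groups. Deviations of the A libraries from their group means correlated at -0.162 to 0.161 across groups, 0.161 being that of vehicle 12 h with vehicle 24 h. Correlations of this size cannot decide whether the letters mark pairs. With the letter as a replicate block 326 genes were called higher, 354 lower and 2139 for the difference, and with GC offsets too 460, 547 and 3085. Of 158 genes printed from the count table, 155 of them called, 99 lost their call with the vehicle libraries alone, 104 without vehicle 12 h A, 87 without vehicle 12 h B, 55 without vehicle 24 h B, 25 with the replicate block, 17 with GC offsets and 16 by DESeq2, which gave 145 of them an adjusted p. None of them changed direction in any setting run. The cause of these shifts was not tested, and genes at a few reads per library, such as TFF1, are limited by depth.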
